A study of Mus musculus with 2 samples.

Results

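Macrophages that carried complement C1q transcripts but almost no Lyve1 or Folr2 were examined in single-cell RNA libraries of the mouse aorta. Members were cells with a summed value of C1qa, C1qb and C1qc of at least 10, of Lyve1 and Folr2 under 2, of the smooth muscle gene Myh11 under 20 and of the endothelial genes Pecam1 and Cdh5 under 2. Members were thus chosen by the deposited values of these 8 genes. This rule found 232 cells among 467 cells with a C1q sum of at least 10 (called C1q cells here) and among 7358 cells in all. The 2 libraries hold cells of the root and the ascending part of the aorta, taken at 16 weeks of age from Fbn1C1041G/+ mice, a model of Marfan syndrome with a mutated fibrillin-1 allele, and both groups carried that allele. Mice of one group received GLPG0187, an inhibitor of integrin alpha-v, from 6 to 16 weeks of age, and mice of the other received vehicle over the same period. Aortas of males and females were pooled within each group, and each group holds 1 library, so treatment cannot be told apart from the animals used, their dissection or how each library was made. No wild-type aorta was analysed here. The other C1q cells, 144 with GLPG0187 and 91 with vehicle, are all C1q cells that failed any limit of the rule. Of these, 126 and 83 passed the Myh11 and the Pecam1 and Cdh5 limits (called the stricter comparison cells). The other C1q cells thus include some low in Lyve1 and Folr2, which failed only the Myh11 limit (5 and 1) or only the Pecam1 and Cdh5 limit (5 and 5).

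Macrophages of the artery wall come from cells seeded before birth and from blood monocytes that enter later. Lyve1 encodes a hyaluronan receptor and Folr2 a folate receptor, and together with Timd4 and Cd163 they mark long-lived resident macrophages of the adventitia. Macrophages without these genes include cells rich in MHC class II, which presents peptides to CD4+ T cells, cells recently derived from Ccr2+ monocytes, and lipid-handling cells that carry Trem2. C1q is the recognition molecule of the classical complement pathway and is made by macrophages of both kinds.

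All values are the deposited depth-corrected values, whole numbers whose sum per cell is nearly the same in every cell, and a gene level is the mean value per cell. GLPG0187 members had a median total of 14637 and vehicle members of 13871.5, with 3265 and 2995.5 genes detected at the median. A log2 ratio compares 2 populations after each summed value, plus 1, was divided by the population's total, and a gene was measured where its summed values reached 100 (in each library for members against other C1q cells, over both libraries for members against members). Genes were counted by size, at least 1.5-fold, because 1 library per group allows no test, and single cells are not replicates. Intervals of shares are 95% exact binomial (Clopper-Pearson) intervals and cover counting error only. The interval of a difference of shares combines the arms of both exact intervals (Newcombe-type) and has the same limit. Scrublet marked 48 GLPG0187 cells (1.09%) and 16 vehicle cells (0.540%) as doublets, of which 2 and 1 were members. The libraries shared 5 cell barcodes, none of them a member's.

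With GLPG0187, members made up 51.7% (45.8 to 57.5, 154 of 298) of C1q cells, and with vehicle 46.2% (38.5 to 54.0, 78 of 169). The difference was 5.52 percentage points, with an interval of -4.23 to 15.2 that spans 0, so the split of C1q cells was not distinguishable between the libraries at this number of cells. Over all cells, members were 3.50% (2.98 to 4.09) and 2.63% (2.09 to 3.28). Among cells with Xist and no Y-linked transcript, which come from the females of the pools, members were 37.8% (14 of 37) and 31.6% (12 of 38) of C1q cells. Among cells with Y-linked transcripts and no Xist, from the males, they were 56.6% (116 of 205) and 52.4% (55 of 105). Y-only cells made up 75.3% of GLPG0187 members and 70.5% of vehicle members, against 61.8% and 54.9% of the other C1q cells. Digestion and sorting preceded the count and can set these shares.

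The limits of the rule cut few cells. The median C1q sum was 168 in GLPG0187 members and 184.5 in vehicle members. Only 5 and 1 members had a sum of 10 to 19, and 7 and 1 cells just outside had 5 to 9. Lyve1 and Folr2 were both at 0 in 144 and 74 members and summed to 1 in 10 and 4, while 15 and 4 cells just outside had 2 to 4 and the other C1q cells had a median of 17 and 20. The highest Myh11 value in a member was 13 and 5.

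Members were then set against macrophage markers. C1qa and C1qb belong to the rule, so their presence in members was fixed in advance. C1qa had a mean of 64.1 in the GLPG0187 members and 64.9 in the vehicle members, and C1qb 69.7 and 70.0. Both were lower than in other C1q cells, with log2 ratios of -0.36 and -0.35 for C1qa and -0.21 and -0.20 for C1qb. Ctss, the lysosomal protease cathepsin S, had 43.0 and 43.8, against 21.7 and 19.7 in other C1q cells. Lyz2, the lysozyme of myeloid cells, was lower than in other C1q cells (109 and 88.5 against 181 and 171). Cd74, the invariant chain of MHC class II, had 322 and 236, against 273 and 115. Cd14, a co-receptor for lipopolysaccharide, had 33.4 in the GLPG0187 members and 50.6 in the vehicle members, and 32.7 and 33.7 in other C1q cells. Of the 8 dendritic markers, Cd209a was 0 in every member, and the list summed to 0.922 and 2.17, most of it Itgax, against 0.500 and 0.264 in other C1q cells. The 8 monocyte markers summed to 8.22 and 9.04, against 4.08 and 4.62 in other C1q cells. Cells with a C1q sum under 10 held more, with 11.95 and 11.46, so this sum was not particular to members. Cells with Myh11 of at least 20 and no C1q had 4.52 and 4.38. Of the 6 neutrophil markers, Ly6g and Retnlg were 0 in members of both libraries. The neutrophil list summed to 0.727 and 0.231, against 0.326 and 0.264 in other C1q cells. The 3 B cell markers in the data summed to 0.201 and 0.0385, against 0.0278 and 0.0879. The 6 T and NK genes summed to 0.0325 and 0.

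Transcripts of stromal cells were present at a low level in most members and high in a few. The 6 smooth muscle markers, of which none was at 0 in either library, had a median sum of 10.0 per cell in the GLPG0187 members and 7 in the vehicle members, with means of 18.8 and 8.83 and a highest cell of 649 and 60. The 6 fibroblast markers, also all above 0, had medians of 3.5 and 3 and means of 16.9 and 10.8. A sum of at least 50 for either list was found in 11 of 154 and 4 of 78 members. Values without these cells are given below for the fibroblast and interferon lists only. Leaving them out also moved 2 list medians and 4 single genes by more than 1.5-fold, which are not given one by one.

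Against the other C1q cells, members held less of the resident genes and of most CC chemokines, and more of several genes of recruited macrophages and of Mmp12 and Itgax. Lyve1 and Folr2 chose the members, and every gene was read in the same cells, so this comparison is a description with no test. Of 3104 measured genes, members had 144 (4.64%) higher and 184 (5.93%) lower by 1.5-fold or more in both libraries. The genes named below were required to lie on the same side in both libraries. By the smaller ratio of both, Mmp12 and Itgax ranked highest, and Lyve1 and Folr2, which chose the members, ranked lowest.

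**Figure D1:**
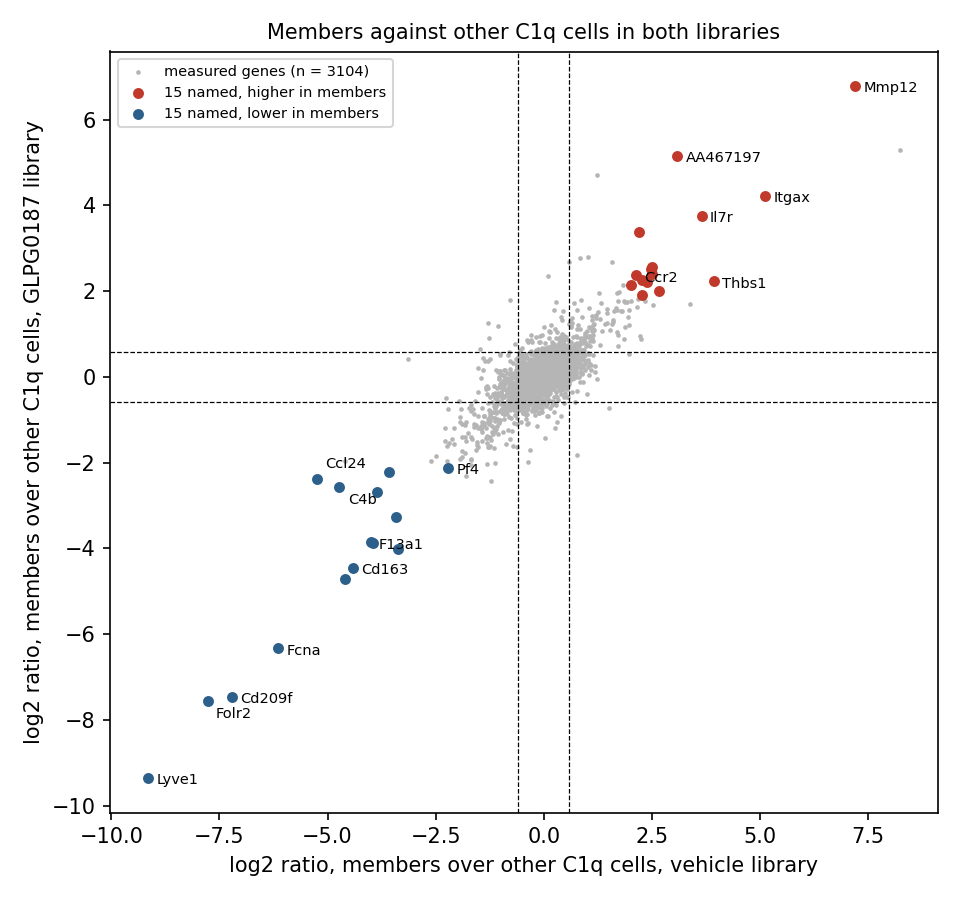
Each point is 1 of 3104 measured genes, placed by its log2 ratio of members over other C1q cells in the vehicle library (horizontal) and in the GLPG0187 library (vertical). Dashed lines mark 1.5-fold, red and blue points are the 15 named genes on each side, and Mmp12 (7.20 and 6.78) and Lyve1 (-9.15 and -9.35) lie farthest out among them.

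The resident list was lower as a block, which is partly fixed by the choice of cells without Lyve1 and Folr2. All 21 measured genes of 23 in the files had a log2 ratio of -0.32 or less in both libraries, against 13.4% of all measured genes, and the medians were -1.96 and -2.24. Cd163, the haptoglobin-haemoglobin scavenger receptor, had a mean of 0.260 in the GLPG0187 members and 0.269 in the vehicle members, against 5.75 and 5.99 in other C1q cells. Timd4, a receptor for phosphatidylserine on dying cells, had 0.0519 and 0.0385 against 1.51 and 1.22. F13a1, the A subunit of clotting factor XIII, had 1.68 and 1.41 against 24.1 and 22.6. For all 3 genes, the mean of members in each library lay below the mean of other C1q cells in both libraries.

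Some resident genes were lowered and not lost. Mrc1, the mannose receptor CD206, had 10.1 and 7.24 in members against 26.3 and 26.7, and was above 0 in 87.0% and 70.5% of members. Pf4, a platelet-type chemokine also made by macrophages, had 12.2 and 12.9 against 52.5 and 59.1. Other genes of the 15 named lower ones were Cd209f, listed at 0 in the members of both libraries, the ficolin gene Fcna, the complement gene C4b (1.71 and 0.179 against 10.1 and 5.04) and the leukotriene C4 synthase Ltc4s (0.156 and 0.397 against 2.59 and 4.19). Hmox1, the haem-degrading oxygenase, had 3.88 and 5.14 against 11.6 and 14.9, and Blvrb, which acts on the next product of haem breakdown, 3.01 and 3.68 against 6.99 and 6.52.

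CC chemokines, which draw monocytes and other leukocytes, were also lower in members. Of 10 measured genes, 6 were lower by 0.32 or more in both libraries and 1 was higher (against 13.4% and 11.8% of all measured genes), with medians of -1.27 and -1.47. Ccl2, the main ligand of Ccr2, had a mean of 25.9 in the GLPG0187 members and 10.6 in the vehicle members, against 88.3 and 37.5 in other C1q cells. Ccl7, a second Ccr2 ligand, had 13.5 and 7.5 against 55.8 and 23.9. Members therefore held less of both ligands and more of the receptor: Ccr2 had 2.89 and 1.58 against 0.549 and 0.352. The gene that went the other way was Ccl5, with 1.86 and 0.782 against 0.264 and 0.429. Cxcl16, a membrane-bound chemokine and scavenger of oxidised lipid, was evenly higher, with 11.1 and 11.9 against 5.27 and 5.38.

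Genes of monocyte-derived macrophages were higher in members. Of 11 measured genes of the recruited list, 6 had a log2 ratio of at least 0.32 in both libraries and 1 of -0.32 or less, against 11.8% and 13.4% of all measured genes. The medians were 1.25 with GLPG0187 and 0.65 with vehicle, and the latter was 0.18 when only genes with summed values of at least 300 were kept. Ms4a4c, a membrane gene of monocytes, had 3.65 and 1.53 against 0.340 and 0.319. Lsp1, an actin-binding protein of leukocytes, had 6.94 and 6.68 against 2.52 and 2.87, and Cd52, a small surface glycoprotein of leukocytes, 22.2 and 23.1 against 10.4 and 9.04. Ifitm3, which responds to interferon, was the exception (21.3 and 10.5 against 28.4 and 21.7).

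Cells with the transcripts of fresh monocytes were few. Ly6c2, which marks classical monocytes, was above 0 in 15 GLPG0187 members (9.74%) and 10 vehicle members (12.8%). Its mean was 0.812 and 3.32, and the highest cell held 29 and 108. Ccr2 was above 0 in 60 (39.0%) and 20 (25.6%) members. Within members that carried Ccr2, Ly6c2 was detected in 21.7% and 35.0% of cells, against 2.13% and 5.17% of members without it. Over single cells, Ccr2 went with Ms4a4c (Spearman's rho 0.55 over 154 cells and 0.51 over 78) and against the lysosomal tetraspanin Cd63 (-0.46 and -0.54). These correlations describe cells that share a library, and none was tested.

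By the smaller ratio of both libraries, the 2 named genes highest in members relative to other C1q cells were Mmp12 and Itgax. Mmp12, the macrophage elastase that degrades elastin, had a mean of 2.31 in the GLPG0187 members and 4.87 in the vehicle members, against 0.0139 and 0.0220 in other C1q cells. It was above 0 in 38 (24.7%) and 22 (28.2%) members, and the 16 and 8 members with most of it held 89.9% and 81.6% of the sum. Itgax, the integrin CD11c of antigen-presenting cells, had 0.779 and 1.91 against 0.0347 and 0.0440, and was detected in 31.8% and 42.3% of members. Both genes were thus close to 0 in other C1q cells of both libraries and carried by a minority of members.

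Other named genes of the higher group had varied roles. Il7r, the receptor of interleukin 7, had 1.42 and 1.51 against 0.0972 and 0.110. Mmp14, a membrane-bound collagenase, had 1.5 and 1.59 against 0.368 and 0.242, and Thbs1, the matricellular protein thrombospondin 1, 3.97 and 4.23 against 0.833 and 0.264. Havcr2, the inhibitory receptor TIM-3, had 0.929 and 1.69 against 0.188 and 0.341. Cd72, a receptor best known from B cells, had 7.24 and 6.46 against 1.61 and 1.57 and was in 83.1% and 82.1% of members. Slc7a11, the cystine-glutamate exchanger, had 2.55 and 2.10 against 0.438 and 0.363. The remaining named genes were AA467197, Gngt2, Lmnb1, Nes and the survival gene Bcl2a1a. Nes had 0.935 and 1.5 in members, and 1.74 and 1.92 in cells with Myh11 of at least 20 and no C1q. Bcl2a1a has near-identical paralogs, Bcl2a1b and Bcl2a1d, that share sequence with it, so its own level is uncertain.

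Matrix proteases and their inhibitors did not all move one way. Of 8 measured genes, 4 were higher and 1 lower by 0.32 in both libraries (against 11.8% and 13.4%), with medians of 0.41 and 0.70. With only genes of summed values of at least 300, the median in the GLPG0187 library was -0.075. Mmp13, a collagenase, had 2.21 and 1.51 against 1.18 and 0.308. Timp2, an inhibitor of these proteases, had 6.02 and 6.41 against 11.7 and 13.4, so that members carried more of several proteases and less of this inhibitor.

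The list of TREM2 lipid-associated genes had 8 of 14 measured genes higher and 2 lower by 0.32 in both libraries (against 11.8% and 13.4% of all measured genes), with medians of 0.94 and 0.93. The medians were 0.29 and 0.28 with genes of summed values of at least 300 and 0.11 and 0.02 among Xist-only cells. Lgals3, which encodes galectin-3, had a mean of 28.5 and 25.9 against 8.22 and 5.05, and Cd9, a tetraspanin, 4.62 and 7.64 against 2.10 and 3.45. Spp1, which encodes osteopontin, had 3.08 and 1.5 against 0.111 and 0.626, with 92.0% and 74.4% of its sum in 16 and 8 members. The lipid importer Cd36 was lower (1.02 and 1.59 against 3.18 and 3.53), as was the cholesterol exporter Abca1 (2.82 and 3.79 against 4.66 and 5.74), whereas the exporter Abcg1 was higher (1.19 and 0.782 against 0.236 and 0.275). Trem2 itself, at 2.92 and 4.12 against 2.29 and 3.36, was 0.33 and 0.28 higher on the log2 scale.

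Inflammatory genes differed from gene to gene. Il1b, the cytokine interleukin 1 beta, had a mean of 39.4 in the GLPG0187 members and 55.3 in the vehicle members, against 19.7 and 16.7, and was above 0 in 133 and 72 members. Its natural antagonist Il1rn had 6.10 and 3.91 against 2.59 and 0.978, and Ptgs2, the inducible cyclooxygenase, 2.92 and 3.09 against 1.02 and 1.10. The list as a whole had 6 of 15 measured genes higher and 1 lower by 0.32 in both libraries (against 11.8% and 13.4%), and its median was 0.06 with GLPG0187 and 0.64 with vehicle. Over single members, Il1b went with Bcl2a1b (rho 0.50 and 0.56) and Cd14 (0.49 and 0.53).

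The target of the inhibitor was present in members. Itgav, which encodes integrin alpha-v, had a mean of 1.45 in the GLPG0187 members and 1.82 in the vehicle members, against 0.958 and 1.01 in other C1q cells. Its partner Itgb5 had 2.10 and 2.82 against 1.31 and 1.88, Itgb3 had 0.0130 and 0.0128, and Itgb8 had 0.0260 and 0.0513. Both Itgav and Itgb5 were higher in members than in other C1q cells in each library, and Itgb3 and Itgb8 were close to 0. Alpha-v integrins are known to release active TGF-beta from its latent complex. Tgfb1 had 2.30 and 2.69 in members, and Tgfbr1, a TGF-beta receptor, 2.10 and 2.69 against 0.896 and 1.21 in other C1q cells.

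Between the libraries, members of the GLPG0187 library held more transcripts of interferon-response, antigen-presentation and CC chemokine genes and less of a group of genes that includes Itgax, Olfml3 and Tmem119. Of 3998 measured genes, GLPG0187 members had 328 (8.2%) higher and 135 (3.38%) lower by 1.5-fold or more. After 10, in place of 1, was added to each sum, 198 were higher. These genes were not used to choose members, but with 1 library per group the differences have no replicate check. The 20 genes named from this comparison had the same direction among Xist-only and among Y-only members because the rule for naming required it.

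**Figure D2:**
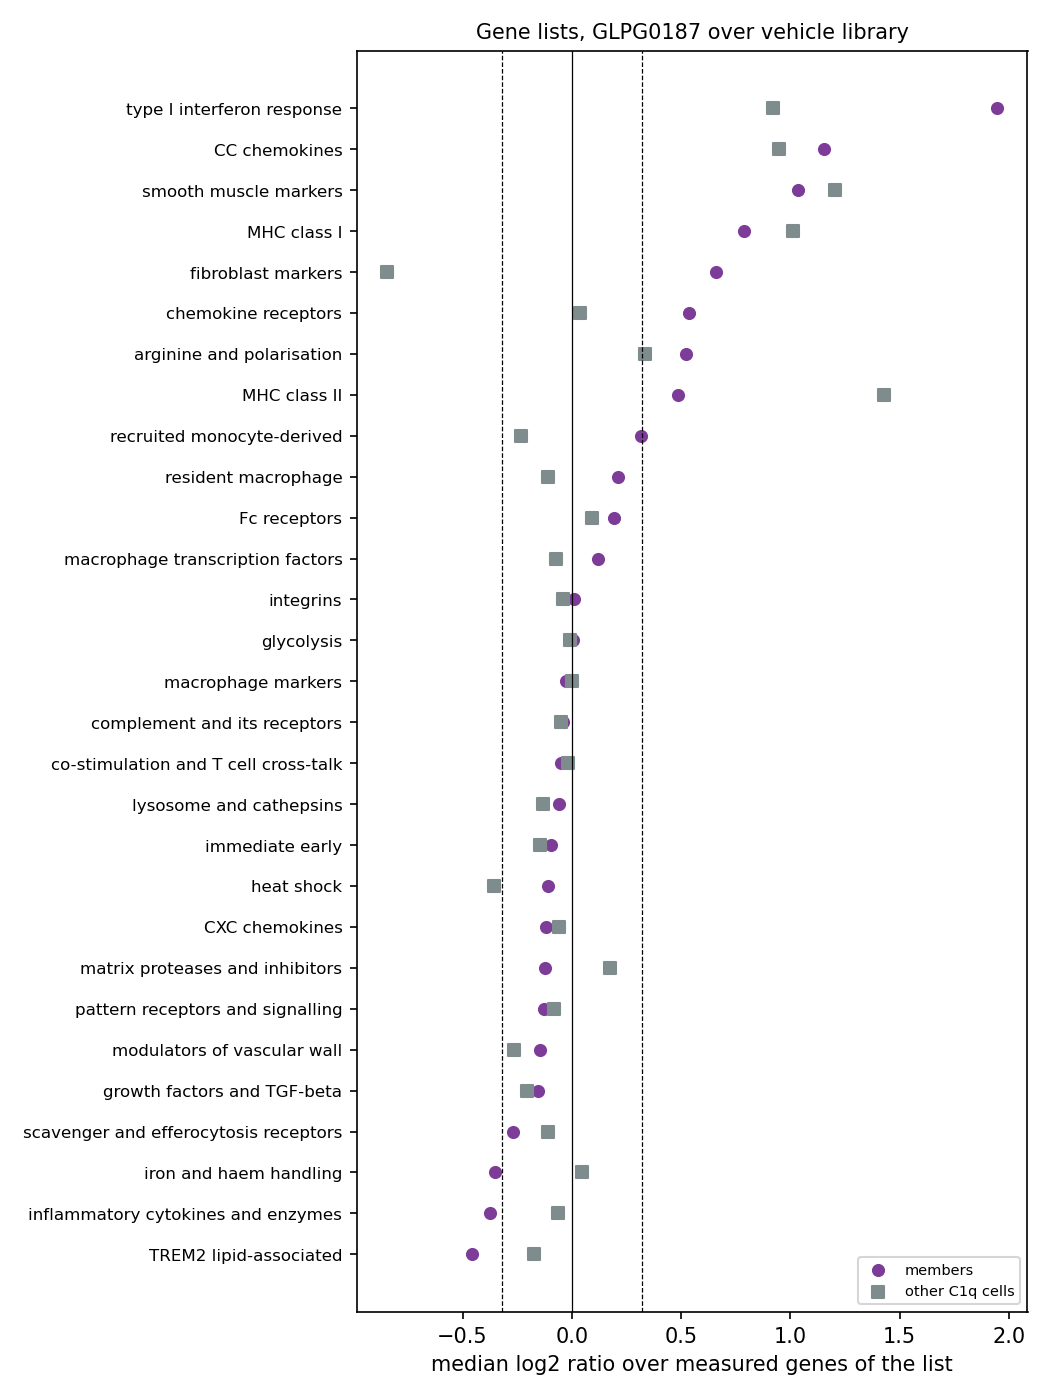
Median log2 ratio of the GLPG0187 over the vehicle library for each gene list with at least 4 measured genes, in members (circles) and in other C1q cells (squares). Dashed lines mark 0.32. The interferon list is highest in members (1.95, and 0.92 in other C1q cells), and the TREM2 lipid-associated list is lowest (-0.46).

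All 18 genes of the type I interferon list were higher by 0.32 or more in the GLPG0187 members, against 19.5% of all measured genes, and 16 were at least 1.5-fold higher. The median log2 ratio was 1.95 in members, 0.92 in other C1q cells and 0.71 in the remaining cells of the libraries, whose median over all genes was -0.04. Among members it was 1.02 in Xist-only cells (14 and 12 cells) and 1.87 in Y-only cells (116 and 55). Without the 11 and 4 members of high stromal sums it was 1.98. The list holds genes that type I interferon and, in part, interferon gamma induce, and some of them are shared by both.

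Rsad2, which encodes the antiviral enzyme viperin, had a mean of 8.68 in the GLPG0187 members and 0.436 in the vehicle members, against 1.09 and 0.330 in other C1q cells. It was above 0 in 62 (40.3%) and 11 (14.1%) members. Ifit3, an antiviral RNA-binding family protein, had 4.04 and 0.231 against 0.590 and 0.473, Ifit1 had 3.53 and 0.205 against 0.917 and 0.418, and Ifit2 had 2.62 and 0.128 against 0.444 and 0.220. For these 4 genes the GLPG0187 members were the highest of the 4 populations. Ifit3 has a near-identical neighbour, Ifit3b, so reads of the pair may have been split or dropped and its level is uncertain.

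Cmpk2, a mitochondrial nucleotide kinase gene next to Rsad2, had 0.909 and 0.0128 in members, with 33 and 1 cells above 0. Iigp1, an interferon-inducible GTPase, had 2.24 and 0.0641 in members and 3.12 and 0.209 in other C1q cells, so this gene was not higher in members than in other C1q cells of the GLPG0187 library. The interferon-inducible GTPases Ifi47 (2.01 and 0.154) and Gbp2 (2.81 and 0.321) were also among the 10 named higher genes. C4b (1.71 and 0.179) and the monocyte gene Plac8 (0.818 and 0.103) completed them. Cells with a C1q sum under 10 held more C4b than members did (3.25 and 2.91). Plac8 was higher with GLPG0187 in those cells too (0.425 and 0.0723) and in other C1q cells (0.0764 and 0).

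Genes of more moderate ratio followed. Irf7, a transcription factor that amplifies type I interferon production, had 4.03 and 1.53 in members and 1.02 and 0.462 in other C1q cells. Irf7 was thus higher in members than in other C1q cells in both libraries, with log2 ratios of 1.96 and 1.69. Among Xist-only cells the ratio in the GLPG0187 library was -0.50. Isg15, a ubiquitin-like modifier, had 9.02 and 2.51 against 3.56 and 1.85. At the other end of the list, Bst2 (10.3 and 7.29) and Ifi27l2a (28.4 and 20.4) were present in nearly all members and differed least between the libraries.

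**Figure D3:**
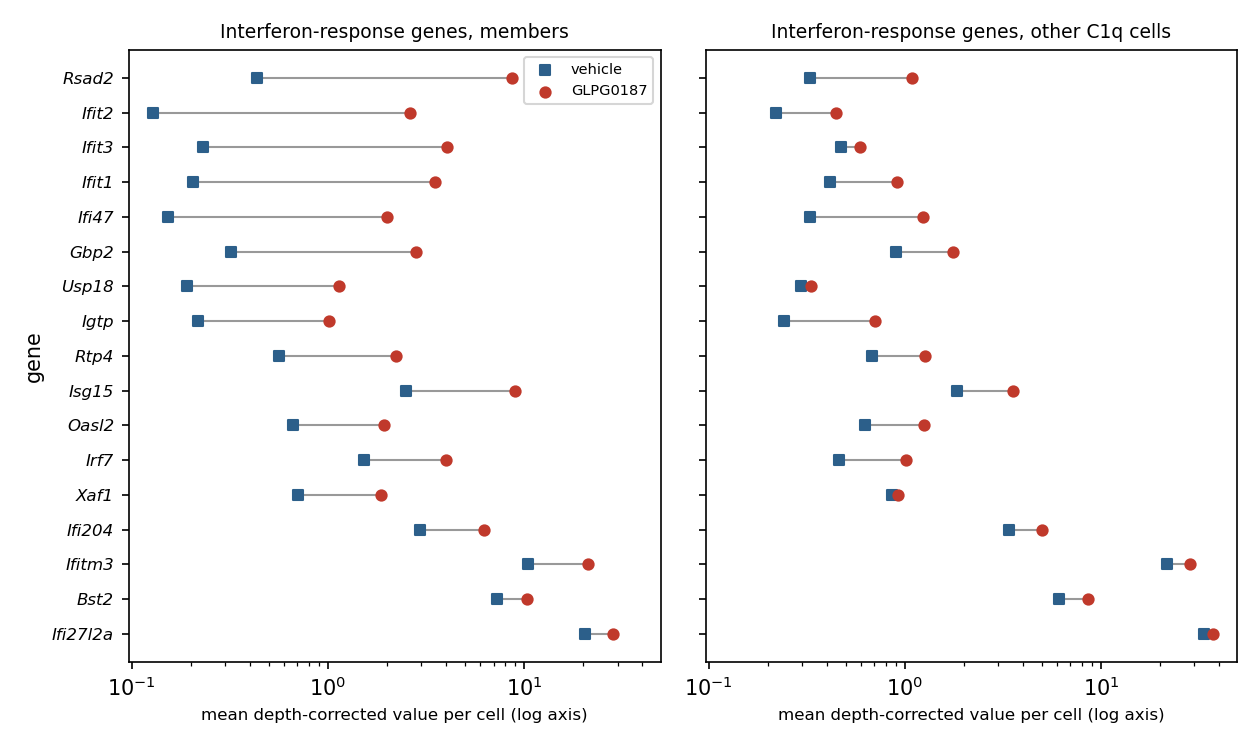
Mean depth-corrected value per cell (log axis) of genes of the interferon list in members (left) and in other C1q cells (right), in the GLPG0187 library (circles) and the vehicle library (squares), joined by a line for each gene. Each circle lies to the right of its square, and the gap is widest for Rsad2, Ifit1, Ifit2 and Ifit3 in members.

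The response was unequal over cells. In the GLPG0187 library, 59 of 154 members (38.3%) had at least 12 of the 18 genes above 0, as had 46 of 144 other C1q cells (31.9%). In the vehicle library it was 9 of 78 members (11.5%) and 7 of 91 other C1q cells (7.69%). The 16 GLPG0187 members with most Rsad2 held 77.3% of it. Members that carried Isg15 also carried Ccr2 more often: 50% of them against 17.3% of the rest in the GLPG0187 library, and 32.4% against 19.5% in the vehicle library. All 15 members with Ly6c2 and all 17 with Plac8 in the GLPG0187 library carried Isg15. In the vehicle library 7 of 10 and 2 of 4 did. Over all members, Isg15 was above 0 in 102 of 154 (66.2%) with GLPG0187 and 37 of 78 (47.4%) with vehicle. Genes detected per cell were also more numerous in the GLPG0187 members, and the part of this in the counts of genes per cell was not tested.

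Interferon-response genes are switched on by factors that bind a short element in their promoters. The 250 bases before the start site of each gene were taken from the RefSeq promoter table (GRCm38.p6), which holds 13 of the 18 list genes, and searched on both strands for GAAANNGAA, a core of that element whose copies can overlap. It was found in 7 of the 13 genes (53.8%), against 8.18% of all 27025 gene symbols in the table. The 10 promoters of MHC class I genes held it in 2 and the 8 of MHC class II genes in 0. The promoters of 4 genes are shown because their genes span the list, from Ifit1 and Ifit3, with a wide gap between the libraries, through Isg15 to Bst2, with a narrow one. Capitals mark each match, or a run of overlapping matches, with TTC at the left end where it lies on the other strand.
Ifit1, chr19:34640760-34640833, plus strand: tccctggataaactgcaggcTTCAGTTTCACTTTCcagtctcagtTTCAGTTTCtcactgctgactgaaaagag
Ifit3, chr19:34583354-34583455, plus strand: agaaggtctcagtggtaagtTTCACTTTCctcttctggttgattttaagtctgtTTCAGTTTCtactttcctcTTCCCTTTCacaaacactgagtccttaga
Isg15, chr4:156200856-156200916, minus strand: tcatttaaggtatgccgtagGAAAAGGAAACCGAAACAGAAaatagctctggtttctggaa
Bst2, chr8:71537568-71537622, minus strand: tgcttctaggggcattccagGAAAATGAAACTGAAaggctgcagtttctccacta
Ifit1, Ifit3 and Isg15 hold 3 matches each and Bst2 holds 2, within 155 bases of the start. Ifit2, Irf7 and Cmpk2 were higher in the GLPG0187 members as well and have no match of these letters in the window. A match describes the letters and not a bound site.

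MHC class II genes were higher in the GLPG0187 members, and more so in the other C1q cells. All 7 measured genes had a log2 ratio of at least 0.32 in members (against 19.5%), with a median of 0.49, and the median was 1.43 in other C1q cells. H2-Ab1, the beta chain of I-A, had a mean of 127 in the GLPG0187 members and 92.9 in the vehicle members, and 117 and 40.7 in other C1q cells. H2-Eb1, the beta chain of I-E, had 128 and 89.2, and 106 and 38.8. Members were thus above other C1q cells by 1.18 (H2-Ab1) and 1.19 (H2-Eb1) on the log2 scale in the vehicle library, and by 0.10 and 0.25 in the GLPG0187 library.

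The member populations differed in MHC class II at the lower quartile and the median more than at the top. For H2-Ab1 the lower quartile, median and upper quartile of single members were 64.5, 139 and 188 with GLPG0187, and 4.25, 75.5 and 163 with vehicle. The highest cells, at 299 and 314, did not differ in that direction. Ciita, the master regulator of these genes, had 0.929 and 0.346 and was detected in 49.4% and 17.9% of members. H2-Ab1 and H2-Eb1 went together over single members (rho 0.92 and 0.96). Trem2 went against H2-Eb1 (-0.38 and -0.28) and with the lysosomal protease Ctsd (0.48 and 0.42).

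MHC class I and its peptide supply followed. Of 11 measured genes, 10 were higher by 0.32 or more (against 19.5%), with a median of 0.79 in members and 1.01 in other C1q cells. Psmb9, a subunit of the immunoproteasome, had 3.53 and 1.21 in members, Tap1, a subunit of the peptide transporter, 1.59 and 0.641, and the heavy chain H2-K1 33.2 and 24. B2m, the light chain, was the 1 gene below the mark (65.0 and 53.8).

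CC chemokines were higher in the GLPG0187 members, with 7 of 10 measured genes higher and 1 lower by 0.32 (against 19.5% and 12.8%) and a median of 1.15. The median was 0.95 in other C1q cells and 1.22 in cells with a C1q sum under 10, so this difference was not particular to members. Ccl2 had 25.9 and 10.6, Ccl12 had 19.9 and 7.08 and Ccl6 had 7 and 3.17. Ccl8 had the largest ratio, with 7.01 and 0.295, but 16 GLPG0187 members held 97.3% of it and 1 cell held 474. It was the reverse among Xist-only members (log2 ratio -0.23). Cxcl10, which attracts T cells and responds to interferon, had 10.7 and 5.21, and Cfp, which encodes properdin, 3.57 and 1.37.

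Genes lower in the GLPG0187 members included Itgax, one of the genes that set members apart. Itgax had 0.779 in the GLPG0187 members and 1.91 in the vehicle members, and was above 0 in 49 and 33 of them. Mmp12 had 2.31 and 4.87, with 24.7% and 28.2% of cells above 0, and 87 and 133 in the highest cell. Its log2 ratio between the libraries was -1.11, but -0.21 among Y-only members and -5.28 among the few Xist-only members, so it was not 1.5-fold apart in the cells of males. Tmem119, a membrane gene best known from microglia, had 0.273 and 0.833, with 26 (16.9%) and 30 (38.5%) members above 0. Olfml3, a secreted glycoprotein gene also known from microglia, had 0.305 and 1.03. In other C1q cells both genes were also lower with GLPG0187, with log2 ratios of -2.07 for Tmem119 (means 0.0278 and 0.132) and -0.92 for Olfml3. Neither gene was confined to macrophages here. Cells that were not C1q cells held more Olfml3 than members did (2.65 with GLPG0187 and 3.28 with vehicle). Tmem119 had 0.351 and 0.584 in those cells, above the GLPG0187 members and below the vehicle members. The part of such cells in the member values was not tested.

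Other named lower genes were Fkbp5, a target of glucocorticoids (0.448 and 1.42), the cytokine Il1a (0.857 and 2.41), the stress-induced hormone Gdf15 (2.27 and 5.47), the B cell survival factor Tnfsf13b (0.455 and 1.03), the calcium pump Atp2b4 (0.675 and 1.65), Procr and Rtcb. Il1a went the other way in other C1q cells, with 3.01 and 1.40. The rest of these genes were lower with GLPG0187 in other C1q cells too, with log2 ratios from -0.44 (Gdf15) to -1.11 (Atp2b4). Areg, the growth factor amphiregulin, had 1.56 and 4.05 in members, but was nearly even among Xist-only members (log2 ratio 0.0546).

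Lists that were lower held smaller differences. Of 15 measured TREM2 lipid-associated genes, 8 were lower and 3 higher by 0.32 (against 12.8% and 19.5%), with a median of -0.46, and of -0.21 among Y-only members. Cd9 had 4.62 and 7.64, and Trem2 2.92 and 4.12. Spp1 was the other way round (3.08 and 1.5), though not among Xist-only members (log2 ratio -1.68). Of 16 measured inflammatory genes, 9 were lower and 2 higher by 0.32 (against 12.8% and 19.5%), with a median of -0.37. Il1b had single-cell medians of 18 and 41.5, and the chemokine Cxcl2, which draws neutrophils, had medians of 55 and 135. The inhibitor of NF-kB Nfkbia had means of 15.2 and 21.0. The ferritin heavy chain Fth1 had 239 and 366.

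**Figure D4:**
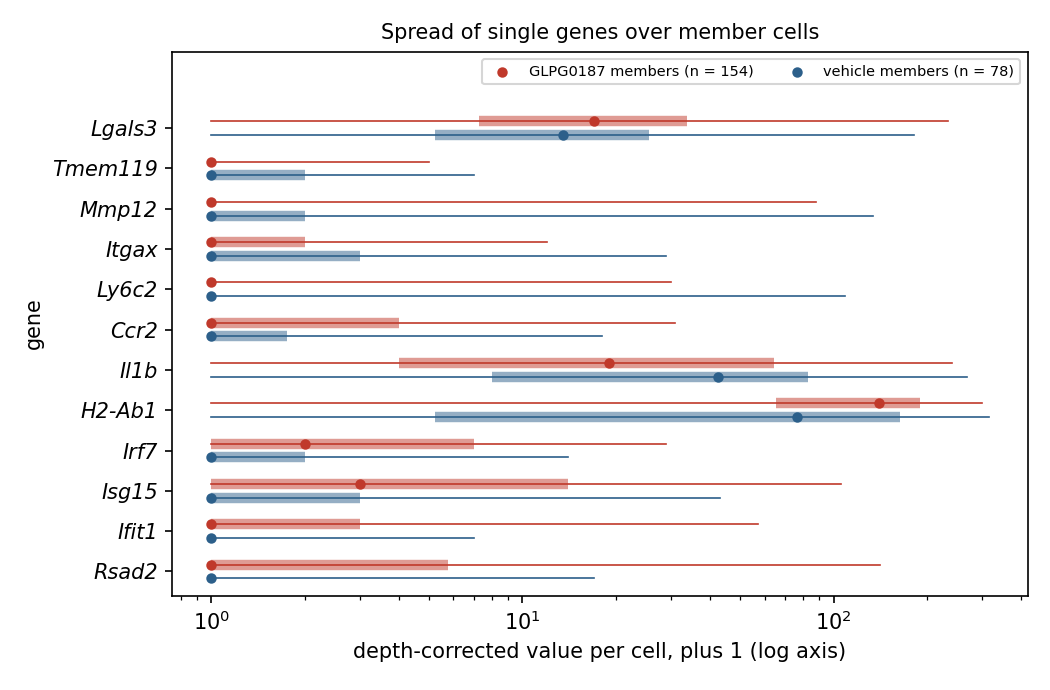
Spread of 12 genes over member cells of the GLPG0187 library (154 cells) and the vehicle library (78 cells), as depth-corrected value plus 1 on a log axis. Points are medians, thick bars the middle quartiles and thin lines the lowest to the highest cell. Most Rsad2, Ifit1, Ly6c2, Mmp12 and Tmem119 values are 0, while H2-Ab1 and Il1b are shifted over most cells.

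The resident list, lower in members than in other C1q cells, had a median log2 ratio of 0.21 between the libraries, and the recruited list 0.32. Ly6c2 was lower in the GLPG0187 members (log2 ratio -2.06), but 1 vehicle cell held 108 of it and the ratio was 3.58 among Xist-only members. Ms4a4c had 3.65 and 1.53, and Ccr2 2.89 and 1.58. Integrin genes went both ways: of 10 measured, 3 were higher and 4 lower by 0.32 (against 19.5% and 12.8%), with a median of 0.01. Itgav itself had a log2 ratio of -0.36. Smooth muscle markers were higher in the GLPG0187 members (median 1.04 over 6 genes) and in other C1q cells (1.20), with the sums per cell given above. In a dissociated tissue such transcripts can come from free RNA, and their part in the differences was not tested. Fibroblast markers had a median of 0.66, and of -0.0345 without the members of high stromal sums.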

How the data were processed

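Single-cell RNA was measured with 10x Genomics 3' version 3 chemistry in 2 pooled aortic libraries, after digestion with Liberase and elastase and a sort that excluded debris, per the labels' protocols. The sources used here do not give how many animals each pool held. The deposited values are whole numbers on a depth-corrected scale, handled as scores rather than UMI counts, because totals per cell vary by 5.69% and 5.81% (coefficient of variation). Per the submitters' processing notes, the tools were Cell Ranger and Seurat and the build mm10, with no version or role stated, and the way the authors corrected depth was not given there. Raw depth is unknown, no count model was used, and less RNA per cell could not be seen.

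Members were found by the rule on the deposited values, with no clustering. Values were summed per population, divided by its total after adding 1, and compared as log2 ratios, with the filters given above. The files hold 18920 genes, and 402 of the 408 list entries in 38 lists. A list was described by its median over measured genes and by genes past 0.32. Genes named against other C1q cells were the 15 farthest apart on each side by the smaller ratio of both libraries, at least 1.5-fold and detected in at least 10% of cells of the higher population in both. Genes named between libraries were the 10 on each side at least 1.5-fold apart, detected in at least 10% of cells of the higher library and of the same direction in Xist-only and Y-only members. Xist, Y-linked, mitochondrial and unnamed gene models were left out. Other genes are examples of their lists, and 2 list genes are not reported here by name. The members and lists were chosen with earlier results of these data known. Doublets were called with Scrublet in scanpy 1.11.5 and kept. Python 3.11.15, numpy 2.4.6, pandas 2.3.3, scipy 1.17.1 and matplotlib 3.10.9 were used, and the ratios were tested on simulated data. Alternatives changed each limit of the rule, the doublets, the comparison cells, the sex of the cells, the scaling, the filter and the added value.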

Additional observations from a re-analysis of the deposited data

Results flagged for a closer look

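The medians of 3 gene lists were of opposite sign in the 2 libraries when members were set against other C1q cells, and the difference between the libraries was not tested. The type I interferon list had a median log2 ratio of 0.61 with GLPG0187 and -0.22 with vehicle. The fibroblast markers had 0.50 and -0.81, and these rest on few cells, since 10 GLPG0187 members and 4 vehicle members had a fibroblast marker sum of at least 50. The arginine and polarisation list, with 4 measured genes, had -0.32 and 0.18.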

How the results depend on the processing

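Changes in the C1q, Lyve1 and Folr2 and Myh11 limits, leaving out doublets, the stricter comparison cells, Y-only cells, median-of-ratios scaling and, chosen after seeing the data, leaving out cells of high stromal sums kept all shares and counts within their margins (the 95% interval for a share, 1.5 times for a count). Xist-only cells gave shares of 37.8% and 31.6% and fewer genes, with 24 higher and 49 lower in members and 63 higher and 55 lower in the GLPG0187 library. They hold 26 members, and fewer genes reach the filter. A minimum sum of 30 gave 300, 421, 942 and 467 genes in the same order, a minimum of 300 gave 59, 82, 112 and 35, and no filter gave 920, 1420, 2177 and 7034, since genes at 0 then differ only through the library totals. Adding 10 to each sum gave 198 genes higher in the GLPG0187 library.

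The main comparison applied the Myh11 limit to members only. Of list medians, the smooth muscle markers in the GLPG0187 library, members over other C1q cells, were -1.61 and became 0.44 against the stricter comparison cells. Among Xist-only cells the interferon list became -0.21 and the vascular wall list -0.85 in the same comparison. There the arginine and polarisation list became 0.24 (Y-only), 0.16 (minimum of 300) and 1.08 (no filter), the matrix protease list -0.075 (minimum of 300) and the fibroblast markers -0.17 (without high stromal sums). Between libraries, the fibroblast markers became -0.0345 without those cells. Single genes that changed sign did so among Xist-only cells: against other C1q cells in the GLPG0187 library, Ccl24 (2.66), Fabp5 (-1.003), Irf7 (-0.50) and Isg15 (-0.90), and between libraries Areg (0.0546), Ccl8 (-0.23), Ly6c2 (3.58) and Spp1 (-1.68). The cause was not tested. Over all alternatives, a further 27 values of list medians and 200 of single genes moved by more than 1.5-fold without a change of sign past the marks, and 1279 and 2187 moved by no more than that. No paired analysis was possible because each group holds 1 library and no replicate could be left out. Depth per cell is unknown, and 14 and 12 Xist-only members limit every statement about them.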
